A study of Papio hamadryas with 160 samples.

Results

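The late-numbered human microRNAs (miRNAs) were described in blood and brain of 10 baboons (Papio hamadryas). They were taken as the measured miRNAs whose human number is 570 or more, apart from 12 late-numbered miRNAs that the rule leaves out, most of which belong to the large imprinted cluster of the human DLK1-DIO3 locus. The rule gave 54 of 362 miRNAs (14.9%), with numbers between 574 and 7977. Of these, 34 had numbers below 1000 and 20 had numbers of 1000 or more. Sequence conservation was not measured in these data, so the miRNAs are called late-numbered and not less conserved. At the edge of the rule, miR-574-3p is inside and averaged 25.4 RPM (reads scaled to a common library total of reads matched to miRNAs) in Group A brains and 21.4 RPM in Group B brains, while miR-551b-3p is outside and averaged 27.1 and 7.78 RPM in the same groups.

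A miRNA is an RNA of about the length of a siRNA that is cut from a hairpin precursor and guides Argonaute proteins to partly complementary messenger RNAs. The number in its name follows the order of registration in miRBase, so miRNAs that are abundant, or shared by many animals, tend to have low numbers, and those found later by deep sequencing tend to have high ones. The suffixes -5p and -3p name the arm of the hairpin from which the mature strand comes. Many late-numbered miRNAs lie inside introns of protein-coding genes, some are spliced introns themselves (mirtrons), and a few share sequence with transfer RNAs or small nucleolar RNAs.

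Small RNA libraries were made from peripheral blood mononuclear cells (PBMC) and from 14 brain regions. Group A comprised 4 adult females euthanized with pentobarbital, with PBMC, the paraventricular nucleus of the hypothalamus (PVN), amygdala (AMG), dorsomedial prefrontal (dmPFC), dorsal anterior cingulate (dACC), lateral and medial orbitofrontal (lOFC, mOFC) and posterior cingulate cortex (PCC). Group B comprised 6 animals that had served as controls of another study, mostly older males with a single younger female, and were exsanguinated under anesthesia, with PBMC, cerebellum (CB), occipital cortex (OC), hippocampus (HC), entorhinal cortex (EC), dorsolateral prefrontal (dlPFC), motor (MC) and posterior parietal cortex (PPC). All animals received ketamine and isoflurane, and the samples were not set apart by an experimental treatment. Group A brains were kept cold until dissection, and each dissected region was frozen in chilled 2-methylbutane, while Group B regions went into liquid nitrogen directly. Since no region was sampled in both groups, region, sex, age, euthanasia and freezing cannot be told apart between Groups A and B. In all there were 76 libraries, 10 of PBMC and 66 of brain, with 27 brain libraries in Group A (AMG in 3 animals only) and 39 in Group B (CB, MC and OC in 5 animals each).

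The reads were matched to human miRNAs with no mismatch allowed, so a baboon miRNA that differs from its human counterpart is counted low or at 0. Libraries held 1584760 to 4899930 matched reads in Group A PBMC, 1934418 to 6966017 in Group A brain, 707977 to 1208337 in Group B PBMC and 1425622 to 7036382 in Group B brain. Sums of 5 leukocyte markers (miR-142-3p, miR-142-5p, miR-150-5p, miR-155-5p and miR-223-3p) lay between 63215 and 140966 RPM in Group A PBMC, against 279 to 941 RPM in Group A brain, and between 106998 and 144868 RPM in Group B PBMC, against 224 to 877 RPM in Group B brain. Sums of 5 neuron markers were 528 to 1026 RPM in Group A PBMC, against 31753 to 68032 RPM in Group A brain, and no marker of either list was at 0. The amygdala and medial orbitofrontal libraries of animal A3 stood apart: over all miRNAs the library labelled AMG lay 0.648 from the other AMG libraries and 0.332 from the mOFC libraries (root mean square of log2 differences), and the library labelled mOFC lay 0.633 from its own region and 0.414 from AMG. A swap of these 2 labels is possible and was not tested, and the labels are used as given. With or without these 2 libraries, 49 late-numbered miRNAs were called between PBMC and brain in Group A and 39 in the PVN.

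Late-numbered miRNAs were present at low to moderate levels, lower in PBMC than in brain at the median. In PBMC they had a median of 12.9 RPM in Group A, against 33.6 RPM over all 362 miRNAs, and 16.1 RPM in Group B, against 36.2 RPM over all. Over the animals' brain means the medians were 59.2 RPM in Group A, against 119 RPM over all, and 48.7 RPM in Group B, against 93.3 RPM over all. Together the 54 miRNAs took 0.380% to 0.480% of the matched reads of Group A PBMC libraries and 0.832% to 1.65% of those of Group A brain libraries. In Group B they took 0.396% to 0.498% of the reads in PBMC and 0.448% to 1.18% in brain. Levels of 1000 RPM or more in Group A brain were reached by 2 of the 54 (3.70%), compared with 71 of 362 (19.6%). At least 10 reads were counted for every one of the 54 in 80% or more of the brain libraries, as the authors' filter requires, and for 43 of them in every brain library.

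The most abundant was miR-769-5p, at 3046 RPM over the brain libraries and 39th of all 362 miRNAs. Next came miR-744-5p, from an intron of the human kinase gene MAP2K4, at 977 RPM, and miR-1307-5p at 843 RPM. The remaining 7 of the 10 most abundant were miR-598-3p (351 RPM), miR-874-3p (319 RPM), miR-873-5p (316 RPM), miR-584-5p (282 RPM), miR-1296-5p (282 RPM), miR-577 (222 RPM) and miR-628-5p (220 RPM). At the other end, miR-1179 (8.54 RPM), miR-1285-3p (8.59 RPM) and miR-671-5p (9.44 RPM) were the least abundant in brain. Levels of different miRNAs are compared on the RPM scale, and each carries how well the library kit captures its sequence.

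**Figure D1:**
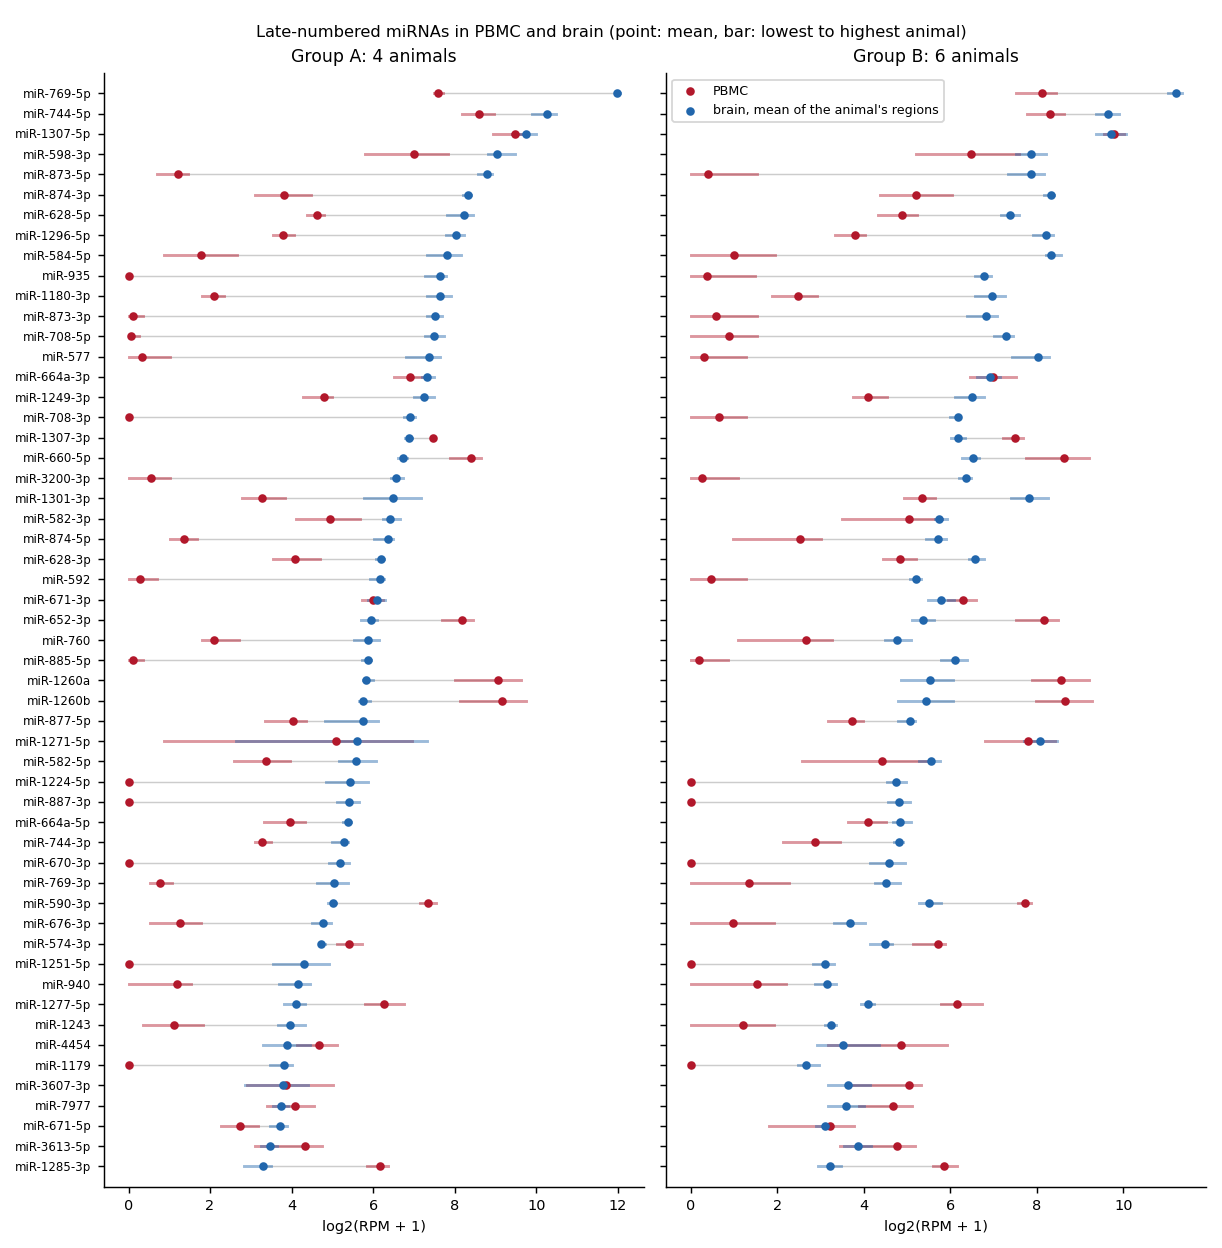
Levels of the 54 late-numbered miRNAs in PBMC (red) and brain (blue) as log2(RPM + 1), Group A left and Group B right; points are means over animals, bars run from the lowest to the highest animal, and miRNAs are sorted by Group A brain level. Most red points lie far left of the blue ones, miR-1260a, miR-1260b, miR-652-3p, miR-590-3p and miR-660-5p lie right of them, and miR-1307-5p, at 710 and 874 RPM in PBMC of Groups A and B, lies close to its brain level.

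The comparison of blood with brain of the same animal asked which late-numbered miRNAs PBMC carry at all. In Group A, 11 of the 54 were higher and 38 lower in PBMC than in the mean of the animal's brain regions, and 5 did not pass the test (limma on log2(RPM + 1), animal as block, adjusted p under 0.05 over all 362 miRNAs). Among all miRNAs 89% were called, 28.5% higher and 60.5% lower, so the late-numbered miRNAs were called lower in PBMC somewhat more often than the background, at 70.4%. In Group B, 14 were higher and 35 lower, against backgrounds of 31.8% and 59.9% (91.7% called in all). The 54 had a median log2 fold change of -2.64 in Group A and one of -2.05 in Group B, against -1.53 and -1.32 over all miRNAs. In bulk samples a lower level can come from fewer cells of a type or from less RNA per cell, and these cannot be told apart.

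The shift of the whole table depends on the scaling. The median over all miRNAs in Group A was -1.53 on RPM, -1.11 after median-of-ratios scaling, -0.86 in edgeR and -0.03 after quantile normalization. Quantile normalization turned the split of late-numbered miRNAs to 18 higher and 27 lower in Group A and to 24 higher and 25 lower in Group B. Over all 362 it gave 154 higher and 157 lower in Group A and 160 and 150 in Group B. The median of the 54 was then -0.34 in Group A, against -0.03 over all, and 0.10 in Group B, against 0.07. By that median the 54 no longer lay below the whole table in Group B. Under all 5 scalings 11 of the 54 stayed higher and 27 lower in Group A, and 14 stayed higher and 25 lower in Group B. The share of all miRNAs that did so is not given here, so these counts have no background. The groups also split by number: of the 34 below 1000, 4 were higher and 28 lower in Group A PBMC, while of the 20 with numbers of 1000 or more, 7 were higher and 10 lower.

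The same 11 miRNAs were higher in PBMC in both groups of animals: miR-574-3p, miR-590-3p, miR-652-3p, miR-660-5p, miR-1260a, miR-1260b, miR-1277-5p, miR-1285-3p, miR-1307-3p, miR-3613-5p and miR-4454. Among all miRNAs 28.5% were higher in Group A and 31.8% in Group B, and the share higher in both was not counted. Host genes are known for several of the 11 in human, such as TMEM164 for miR-652 and EIF4H for miR-590, and miR-660 belongs to the CLCN5 cluster on the X chromosome. For miR-1260b the 4 Group A PBMC libraries had 281, 693, 456 and 858 RPM, against brain means of 49.7, 59.8, 49.3 and 53.2 RPM in the same animals. All PBMC values lay above all brain values, and the log2 fold change was 3.34 ± 0.26 (SE, adjusted p = 3.1e-05, higher in 4 of 4 animals). In Group B PBMC it ran between 252 and 618 RPM (median 354 RPM), against brain means between 26.6 and 65.5 RPM, with a log2 fold change of 3.25 ± 0.17 (adjusted p = 5.8e-07, higher in 6 of 6). The sister miR-1260a moved with it: the ratio of miR-1260b to miR-1260a stayed between 0.729 and 1.13 over the 76 libraries (median 0.957). The mature miR-1260a and miR-1260b are near-identical, so reads may have been counted for both and their separate levels are uncertain.

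For miR-652-3p the Group A PBMC libraries had 346, 206, 282 and 321 RPM, against 67.2, 60.1, 64.9 and 51.1 RPM in brain. The groups did not overlap (log2 fold change 2.35 ± 0.18, adjusted p = 2.5e-05). In Group B it reached 182 to 358 RPM in PBMC (median 298 RPM), against 33.7 to 48.1 RPM in brain, a log2 fold change of 2.82 ± 0.12 (adjusted p = 2e-07, 6 of 6 animals). Similarly, miR-590-3p averaged 161 ± 19.6 RPM in PBMC and 31.3 ± 1.90 RPM in brain of Group A (SD, n = 4), and 210 ± 19.8 RPM in PBMC and 44.5 ± 6.51 RPM in brain of Group B (n = 6). Of the others, miR-1285-3p, at 71.3 ± 12.6 RPM in Group A PBMC, was among the least abundant of the 54 in brain at 8.85 ± 1.92 RPM, and miR-660-5p had 335 ± 71.1 RPM in PBMC and 105 ± 7.32 RPM in brain. The weakest of the 11 was miR-1307-3p in Group A, at 175 ± 4.17 RPM in PBMC and 117 ± 6.96 RPM in brain (log2 fold change 0.62 ± 0.14, adjusted p = 0.0052), while miR-3613-5p was higher in 3 of 4 Group A animals (0.85 ± 0.32, adjusted p = 0.041).

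The list of names that overlap transfer or small nucleolar RNA sequence (miR-664a-3p, miR-664a-5p, miR-1260a, miR-1260b, miR-3607-3p, miR-4454 and miR-7977) held 3 higher and 1 lower of 7 in Group A PBMC, and 5 higher and 1 lower in Group B. The one lower in both was miR-664a-5p. Reads of these names can be fragments of the longer RNA, and the files do not separate them. In Group B, miR-3607-3p averaged 32.2 ± 10.0 RPM in PBMC and 11.5 ± 3.14 RPM in brain (log2 fold change 1.45 ± 0.24, adjusted p = 0.00059), and miR-7977 averaged 24.4 ± 7.82 RPM in PBMC and 11.1 ± 2.55 RPM in brain (1.06 ± 0.17, adjusted p = 0.00056). Neither passed in Group A. As a list they had a median of 0.32 in Group A, then 1.26 in Group B, above the medians over all miRNAs given above.

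At the opposite end, 35 late-numbered miRNAs were lower in PBMC in both groups. Among all miRNAs 60.5% were lower in Group A and 59.9% in Group B, and the share lower in both was not counted. The 5 that lie in genes used by neurons in human (miR-592 in the glutamate receptor gene GRM8, miR-708-3p and miR-708-5p in the teneurin gene TENM4, miR-885-5p in the calcium pump gene ATP2B2 and miR-935 in the channel subunit gene CACNG8) were lower 5 of 5 in each group, with medians of -6.86 in Group A and -5.93 in Group B, also under all 5 scalings. This list was chosen with earlier results of these data known, and both miR-708 arms come from the same hairpin, so the count is a description. For miR-935 no read was counted in any of the 4 Group A PBMC libraries, while the brain means were between 153 and 218 RPM. Set against 3 reads in the summed PBMC total, or 0.242 RPM, it was at least 794-fold lower in PBMC. In Group B 2 reads of miR-935 were counted, all in the library of animal B5 at 1.79 RPM, and brain over PBMC was 281 (95% exact Poisson interval of counting 77.8 to 2322).

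No read was counted in any Group A PBMC library for 7 of the 54 (18 of all 362 miRNAs), and in any Group B PBMC library for 5 (22 of 362). By the same floor, Group A PBMC were at least 478-fold lower for miR-708-3p, at least 165-fold lower for miR-887-3p and for miR-1224-5p, at least 141-fold lower for miR-670-3p, at least 73.8-fold lower for miR-1251-5p and at least 52.9-fold lower for miR-1179. In Group B the floor was 0.515 RPM and PBMC were at least 49.5-fold lower for miR-1224-5p, at least 46.8-fold for miR-887-3p, at least 42.9-fold for miR-670-3p, at least 13.4-fold for miR-1251-5p and at least 10.5-fold for miR-1179. The counts set these limits, and they cover counting error only, since reads after amplification are not independent molecules. The same holds for miR-708-5p, where 1 read in Group A PBMC gave a ratio of brain to PBMC of 2208 with a counting interval of 396 to 87206.

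A large difference with many reads in both tissues was found for miR-769-5p. The Group A PBMC libraries had 210, 180, 193 and 182 RPM, against brain means of 3874, 3969, 4004 and 4216 RPM. In Group B it ran from 181 to 349 RPM in PBMC (median 283 RPM), against 2102 to 2608 RPM in brain. All animals showed the lower PBMC level (log2 fold change -4.37 ± 0.14, adjusted p = 5.8e-07 in Group A, and -3.03 ± 0.14, adjusted p = 2.2e-07 in Group B). For miR-873-5p the Group A means were 1.32 ± 0.523 RPM in PBMC and 439 ± 45.5 RPM in brain (log2 fold change -7.56 ± 0.21, adjusted p = 3.3e-07), and for miR-577, in an intron of the human galactolipid enzyme gene UGT8, they were 0.255 ± 0.51 RPM in PBMC and 164 ± 38.3 RPM in brain (-6.96 ± 0.26, adjusted p = 1.1e-06). Fold changes on the log2(RPM + 1) scale understate the difference where PBMC are near 0.

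Of the 2 mirtrons, known in human from ABCF1 and VWA5B2, both were lower in PBMC in both groups. While miR-1224-5p was at 0 in PBMC throughout, miR-877-5p averaged 15.3 ± 4.34 RPM in PBMC and 52.6 ± 18.0 RPM in brain of Group A (log2 fold change -1.60 ± 0.35, adjusted p = 0.0045), a call that did not hold under all scalings. The 2 miRNAs that passed in neither group were miR-664a-3p and miR-1307-5p. For miR-1307-5p the Group A PBMC libraries had 872, 605, 871 and 491 RPM, against 934, 822, 1008 and 674 RPM in brain (log2 fold change -0.27 ± 0.15, adjusted p = 0.12). The PBMC and brain ranges overlapped in both groups, and PBMC were lower in 4 of 4 Group A animals and higher in 4 of 6 Group B animals. Another 3 were lower in Group A without passing in Group B (miR-582-3p, miR-671-5p and miR-1271-5p), and 3 were higher in Group B without passing in Group A (miR-671-3p, miR-3607-3p and miR-7977).

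Whether the difference between PBMC and brain itself differed between Groups A and B was tested directly over the 10 animals. For 13 of the 54 it was lower in Group A than in Group B and for 0 it was higher by limma, against 10.5% and 1.38% of all miRNAs (11.9% called). At an unadjusted p under 0.05 limma gave 1 higher, miR-584-5p, and after quantile normalization 10 were lower and 1 higher. The 13 were miR-592, miR-628-5p, miR-708-3p, miR-708-5p, miR-760, miR-769-5p, miR-874-5p, miR-887-3p, miR-935, miR-1179, miR-1180-3p, miR-1251-5p and miR-1307-3p. The clearest by p-value was miR-769-5p, where PBMC minus brain was -4.50 to -4.18 in the 4 Group A animals and -3.56 to -2.77 in the 6 Group B animals (difference -1.34 ± 0.19, adjusted p = 0.0012). The median difference over the 54 was -0.63, against -0.27 over all. For miR-887-3p, miR-1179 and miR-1251-5p no PBMC read was counted in either group, so their differences hold only the brain level: miR-1179 averaged 13.1 ± 2.18 RPM in Group A brains and 5.38 ± 0.992 RPM in Group B brains. PBMC reads of Groups A and B were also few for miR-592 (2 and 2) and miR-708-3p (0 and 3). The same held for miR-708-5p (1 and 5) and miR-935 (0 and 2). These 4 did not pass by limma at a pseudocount of 0.1 RPM (adjusted p = 0.49, 0.13, 0.13 and 0.18, in that order). Median-of-ratios scaling left 7 of the 54 called, and a pseudocount of 10 RPM gave 26. A pseudocount of 0.1 RPM left 4, which were miR-769-5p, miR-1179, miR-1251-5p and miR-1307-3p. Leaving out 1 animal at a time gave 6 to 14, with the lowest count of 6 without A1 or without A3 and 7 without A2.

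Both arms were measured for 10 late-numbered hairpins, of 91 in the table, so that the share of the 5p arm could be set between tissues. The log2 ratio of 5p to 3p, each as RPM + 1, was lower in PBMC for 6 of the 10 in Group A, against 34.1% of the 91 hairpins (52.7% were called in either direction). In Group B it was lower for 4 and higher for 1, against 35.2% and 27.5% (62.6% called). For miR-708 in Group A this call rested on 1 PBMC read of the 5p arm and 0 of the 3p arm, so that its 5p share of reads was not lower in PBMC, and for miR-873 in Group B it rested on 2 and 3 PBMC reads. With a pseudocount of 0.1 RPM the Group A split became 5 lower, without miR-708, and 2 higher, miR-769 and miR-873. The comparison was therefore repeated, after the data were seen, over the 6 hairpins with at least 5 RPM of both arms in PBMC and in brain (miR-582, miR-628, miR-664a, miR-671, miR-744 and miR-1307). Of these, 5 were lower in Group A PBMC, and 3 were lower and 1 higher in Group B PBMC. Under the same limit 35 of 64 hairpins of the table were called in either direction in Group A and 42 of 64 in Group B. The 4 of 6 called in Group B were thus close to the background. Among the 6, the 3 lower in both groups were miR-628, miR-664a and miR-1307.

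For miR-628, from an intron of the human gene CCPG1, the 5p arm took 60.9% ± 8.79 of the reads of the pair in Group A PBMC (51.7% to 71.2%, SD, n = 4) and 80.03% ± 3.06 in brain. In Group B it took 50.8% ± 3.9 in PBMC (n = 6) and 62.8% ± 3.2 in brain. The log2 ratio of the arms differed by -1.39 ± 0.21 in Group A (adjusted p = 0.00083) and by -0.71 ± 0.13 in Group B (adjusted p = 0.0027). For miR-1307 the 5p share was 79.5% ± 4.5 in PBMC and 87.6% ± 1.8 in brain of Group A, and 82.9% ± 2.2 in PBMC and 91.8% ± 1.0 in brain of Group B (adjusted p = 0.0043 and 0.00016). This is the arm view of the values above, since miR-1307-3p was higher in PBMC and miR-1307-5p did not pass. For miR-664a, where the 3p arm dominates, the 5p share was 11.7% ± 5.9 in PBMC and 21.1% ± 2.5 in brain of Group A, and 12.2% ± 4.8 in PBMC and 19.0% ± 2.7 in brain of Group B (adjusted p = 0.0094 and 0.0075). The exception was miR-744, with 98.0% ± 0.5 in PBMC and 96.3% ± 0.4 in brain of Group B (adjusted p = 0.0015, higher in 6 of 6). For miR-769 the 5p arm took 97.8% or more of the pair in every brain library, and its ratio did not pass in either group at a pseudocount of 1 RPM.

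Differences between brain regions were close to those of the whole table in Group A and somewhat larger in Group B. Specificity was measured with tau, an index that is 0 when all 7 regions of a group have the same log2(RPM + 1) and nears 1 when a single region carries the signal. The 54 had a median tau of 0.0999 in Group A, against 0.0860 over all miRNAs, and of 0.106 in Group B, against 0.0850 over all. The median distance between the highest and the lowest region was 0.98 on the log2 scale in Group A (0.94 over all) and 1.43 in Group B (1.18 over all). More than 1 log2 unit separated the extreme regions for 25 of the 54 in Group A (46.3%, against 45.0%) and for 37 in Group B (68.5%, against 58.8%). The region with the highest mean was the PVN for 37 of the 54 in Group A (68.5%, against 64.4% of all) and the EC for 28 in Group B (51.9%, against 38.1%), and the lowest was the CB for 38 in Group B (70.4%, against 52.5%).

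**Figure D2:**
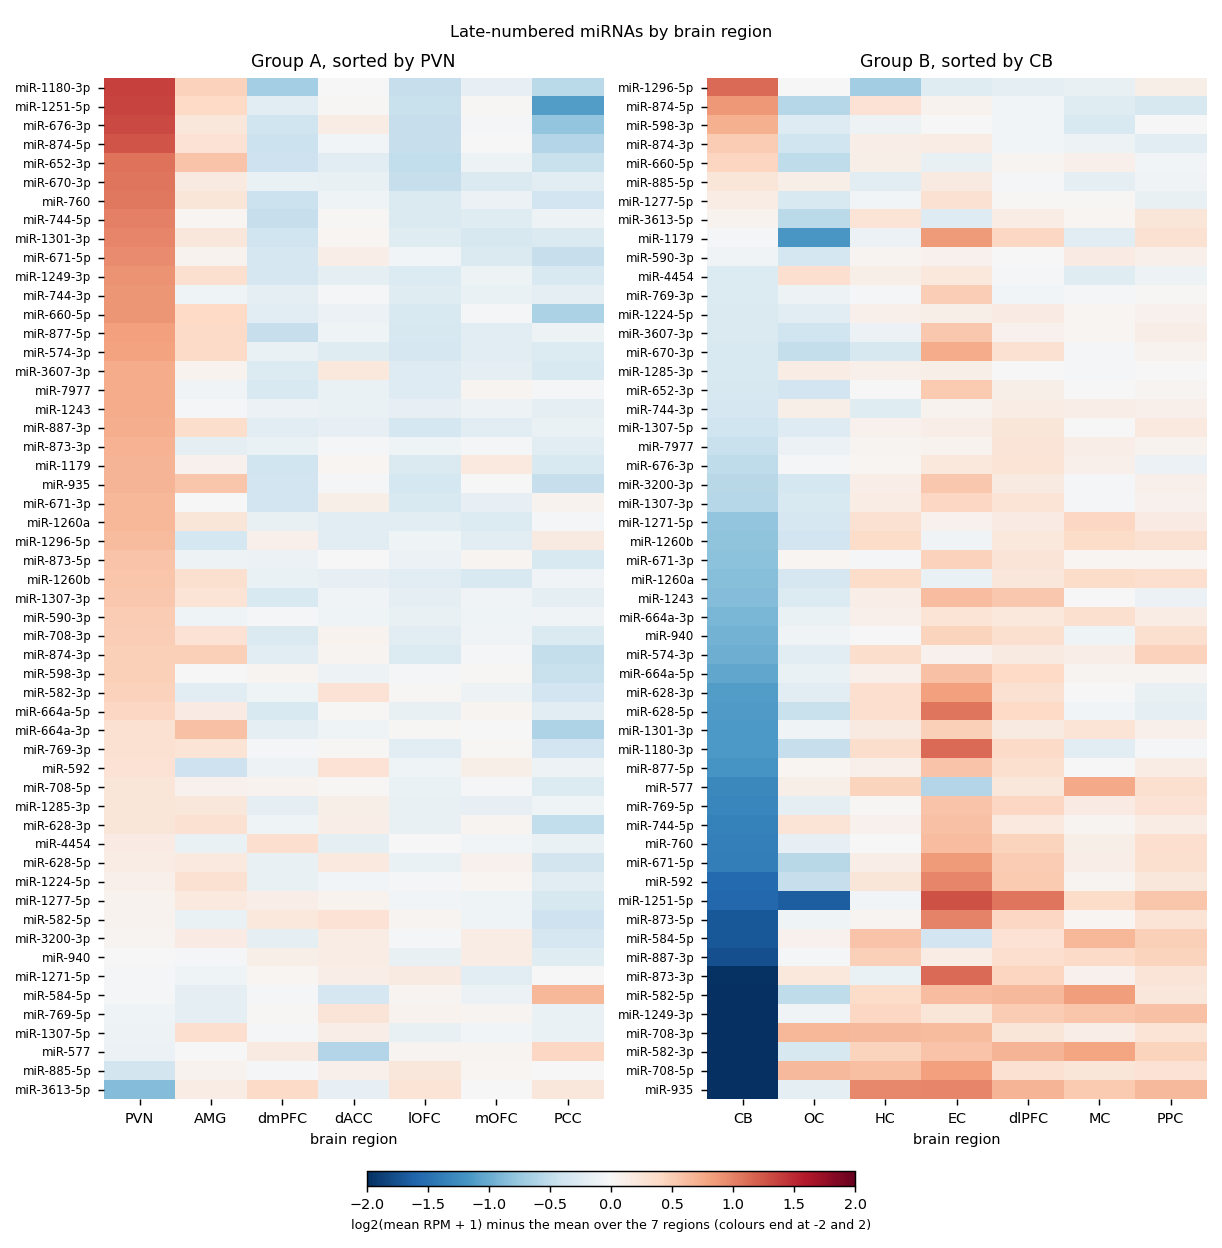
Level of each late-numbered miRNA in the 7 brain regions of Group A (left, sorted by PVN) and Group B (right, sorted by CB), as log2(mean RPM + 1) minus the mean over the 7 regions, red for above and blue for below. The PVN and CB columns stand out in opposite directions on the RPM scale, with miR-1296-5p, miR-874-5p and miR-598-3p the reddest in CB and miR-935 the bluest.

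In the PVN, 36 of the 54 were higher and 3 lower than in the mean of the animal's other regions, and 15 did not pass, against 61.9% higher and 10.2% lower among all miRNAs (72.1% called). The share of higher calls was thus close to the background. This direction depended on the scaling for most of them: the median over all miRNAs was 0.53 on RPM, 0.16 after median-of-ratios scaling and 0.02 in edgeR, and the split of the 54 became 26 higher and 8 lower by median of ratios, 19 and 12 in edgeR, 18 and 13 in DESeq2, and 11 and 17 by quantile normalization. In the same order the splits over all 362 were 157 higher and 88 lower, 122 and 114, 121 and 120, and 105 and 126. Under all 5 scalings 11 of the 54 stayed higher (miR-652-3p, miR-670-3p, miR-671-5p, miR-676-3p, miR-744-3p, miR-744-5p, miR-760, miR-874-5p, miR-1180-3p, miR-1251-5p and miR-1301-3p) and 3 stayed lower (miR-885-5p, miR-1271-5p and miR-3613-5p). The share of all miRNAs that did so is not given here. The 2 neuroendocrine markers (miR-7-5p and miR-375) summed to 2155 to 3500 RPM in the PVN, against region means of 637 to 1078 RPM elsewhere in Group A. The 4 erythroid markers summed to 2039 to 3118 RPM in the PVN, against region means of 1026 to 1364 RPM elsewhere. The 5 leukocyte markers summed to 616 to 941 RPM in the PVN, against region means of 450 to 560 RPM elsewhere. All 5 were higher in the PVN on the RPM scale but not under all 5 scalings. The 2 choroid plexus markers (miR-204-5p and miR-211-5p) summed to 4348 to 6324 RPM in the PVN, against region means of 1183 to 3762 RPM elsewhere in Group A. The 5 neuron markers summed to 31753 to 41755 RPM in the PVN, against region means of 52811 to 60859 RPM elsewhere. The part of these cells in the result was not tested.

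The largest PVN difference was that of miR-1180-3p. The PVN libraries had 588, 499, 421 and 346 RPM, against animal means of 121 to 180 RPM over the other regions. Every PVN value lay above every such mean (log2 fold change 1.66 ± 0.09, adjusted p = 1e-05, 4 of 4 animals). For miR-1251-5p, which shares a locus with miR-135a-2 in human, the PVN libraries had 32.6, 55.7, 66.5 and 24.4 RPM, against 7.87 to 23.2 RPM in the other regions (1.64 ± 0.16, adjusted p = 8e-05). It had the highest tau of the 54 in Group A, 0.292, with 44.8 ± 19.6 RPM in PVN and 7.21 ± 4.48 RPM in PCC. For miR-676-3p, from the human ectodysplasin gene EDA, the PVN libraries had 53.3, 64.6, 68.1 and 53.6 RPM, against 15.2 to 24.5 RPM (1.61 ± 0.10, adjusted p = 1.4e-05), with no overlap.

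Further PVN-high members were miR-874-5p, from the kelch gene KLHL3, at 181 ± 38.2 RPM in PVN and 64.2 ± 9.55 RPM in the other regions (log2 fold change 1.52 ± 0.12, adjusted p = 2.5e-05), and miR-670-3p at 71.6 ± 8.92 RPM in PVN and 29.3 ± 5.34 RPM elsewhere (1.30 ± 0.13, adjusted p = 8e-05). Among the abundant ones, miR-744-5p averaged 2371 ± 740 RPM in PVN and 1035 ± 202 RPM in the other regions (1.19 ± 0.14, adjusted p = 2e-04). For 20 of the 54 the PVN was the highest region in each of the 4 animals (37.0%, against 37.3% of all miRNAs). Of the 3 lower ones, miR-3613-5p had 4.92 ± 2.28 RPM in PVN and 10.99 ± 1.75 RPM in the other regions (-1.01 ± 0.27, adjusted p = 0.013), a call that was lost without A3, and miR-885-5p had 44.1 ± 6.003 RPM in PVN and 59.8 ± 5.41 RPM elsewhere (-0.43 ± 0.13, adjusted p = 0.021), lost without A1 and without A3. Without A3 the call of miR-1271-5p was lost as well (-0.49), and 33 of the 54 were called in all. The PVN libraries had 2.58, 6.46, 4.1 and 156 RPM of miR-1271-5p in A1 to A4. In A2 the cortical libraries had 4.52 to 9.74 RPM and AMG 83.6 RPM, and in A3 the library labelled AMG had 34.3 RPM. In A4 the other regions had 124 to 180 RPM.

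In the cerebellum, 6 of the 54 were higher and 42 lower than in the mean of the other Group B regions of the animal, and 6 did not pass, against 24% higher and 59.7% lower among all miRNAs (83.7% called). Late-numbered miRNAs were therefore called lower in CB in 77.8% of cases, more than the table as a whole, and their median log2 fold change was -1.07, against -0.49 over all. All 6 higher and 27 of the 42 lower calls held under the 5 scalings, and the share of all miRNAs that did so is not given here. The split of the 54 was 19 higher and 28 lower by quantile normalization (154 and 135 over all 362) and 9 and 32 in edgeR (136 and 152). CB libraries had the lowest oligodendrocyte marker sum (miR-219a-2-3p, miR-219a-5p, miR-338-3p and miR-338-5p) of the Group B regions, 2927 to 3652 RPM, and all 4 of these markers were lower in CB. The 5 leukocyte markers, all lower in CB, summed to 224 to 297 RPM there. The 4 erythroid markers summed to 3541 to 5360 RPM in CB, against means of 1269 to 1730 RPM in the other Group B regions. The 2 endothelial markers (miR-126-3p and miR-126-5p) summed to 3780 to 4745 RPM in CB, against means of 6638 to 9850 RPM in the other Group B regions, and the 2 choroid plexus markers to 3252 to 4224 RPM in CB, against means of 1143 to 2289 RPM. In Group B PBMC the endothelial pair summed to 13780 to 53874 RPM, so it is not particular to brain. The part of such cells in the result was not tested.

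Highest in CB was miR-1296-5p, from an intron of the human gene JMJD1C. The CB libraries of animals B1, B3, B4, B5 and B6 had 660, 589, 638, 635 and 546 RPM, against animal means of 223 to 271 RPM over the other regions. All CB values lay above those of all other Group B regions (log2 fold change 1.34 ± 0.07, adjusted p = 9.8e-07, 5 of 5 animals). For miR-874-5p the CB libraries had 95.2, 89.5, 83, 83.8 and 103 RPM, against 42.5 to 53.7 RPM (0.98 ± 0.10, adjusted p = 2.6e-05). For miR-598-3p, from the human gene XKR6, they had 291, 331, 407, 456 and 374 RPM, against 171 to 272 RPM (0.78 ± 0.08, adjusted p = 3.5e-05). These 3 were highest in CB in each of the 5 animals. The other 3 higher members were miR-874-3p (447 ± 45.0 RPM in CB and 305 ± 20.4 RPM in the rest), miR-660-5p (122 ± 17.7 and 87.7 ± 9.59 RPM) and miR-885-5p (80.4 ± 6.99 and 69.0 ± 12.2 RPM, adjusted p = 0.034). Thus both arms of miR-874 were higher in CB.

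**Figure D3:**
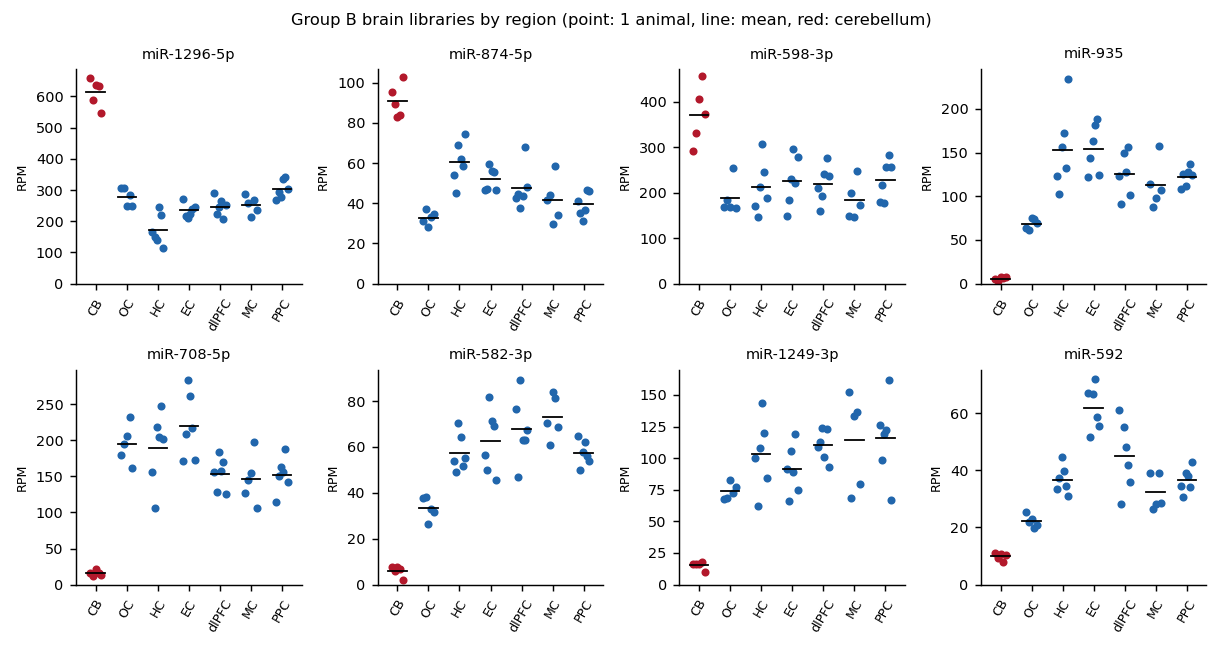
RPM of 8 late-numbered miRNAs in the Group B brain libraries, by region, with a point for each animal, a line for the region mean and CB in red at the left. In CB miR-1296-5p is above 500 RPM in each animal and miR-935 is below 8 RPM, while miR-592 is highest in EC, at 51.9 to 71.9 RPM.

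Lowest in CB was miR-935. The CB libraries had 4.80, 2.71, 7.25, 5.88 and 7.16 RPM, against animal means of 109 to 140 RPM over the other regions. No CB value came near those of another region, where OC had the next lowest mean with 68.8 ± 5.99 RPM (log2 fold change -4.31 ± 0.15, adjusted p = 1e-07). For both arms of miR-708 the levels were 15.6 ± 3.55 RPM in CB and 180 ± 27.5 RPM in the rest for miR-708-5p (-3.43 ± 0.12, adjusted p = 1e-07), and 8.87 ± 1.61 RPM in CB and 81.9 ± 5.58 RPM in the rest for miR-708-3p (-3.05 ± 0.10, adjusted p = 7.8e-08). For miR-582-3p, from the phosphodiesterase gene PDE4D, they were 6.05 ± 2.30 RPM in CB and 60.9 ± 4.20 RPM in the rest (-3.17 ± 0.21, adjusted p = 3.1e-06), and for miR-582-5p 7.55 ± 1.51 RPM in CB and 53.1 ± 6.73 RPM in the rest (-2.61 ± 0.11, adjusted p = 2.9e-07). Both arms of miR-873 were lower as well, with wide spread between animals in CB: miR-873-5p had 16.02 to 92.4 RPM in CB and 183 to 324 RPM in the rest, and miR-873-3p had 3.96 to 37.1 RPM in CB and 95.6 to 154 RPM in the rest.

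Of the 5 miRNAs in neuronal host genes, miR-592, both arms of miR-708 and miR-935 were thus lower in CB under every scaling, and miR-885-5p was higher. The neuron markers had no single direction in CB, with 2 of 5 higher and 2 of 5 lower. Among the most abundant, miR-769-5p was lower in CB, at 881 ± 84.3 RPM against 2705 ± 182 RPM in the rest (log2 fold change -1.59 ± 0.08, adjusted p = 8.6e-07), and so was miR-744-5p, at 287 ± 34.0 RPM against 892 ± 137 RPM (-1.61 ± 0.11, adjusted p = 3.1e-06).

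The EC was not tested against the other regions, and its values are given as a description. In each of the 6 animals EC was the highest Group B region for 5 of the 54 (9.26%, against 4.97% of all miRNAs), which were miR-592, miR-628-5p, miR-670-3p, miR-873-3p and miR-873-5p. For miR-592 EC libraries had 51.9 to 71.9 RPM (median 62.7 RPM), while the region means elsewhere were 45.1 RPM in dlPFC, 36.8 RPM in HC, 36.5 RPM in PPC, 32.3 RPM in MC, 22.2 RPM in OC and 9.87 RPM in CB. It had the highest tau in Group B among members with a brain mean of at least 10 RPM, 0.192. For miR-628-5p EC libraries had 273 to 372 RPM (median 299.5 RPM), and the next highest mean was 193 ± 45.4 RPM in dlPFC. The EC mean of miR-1180-3p, the leading PVN miRNA of Group A, was 239.6 ± 61.1 RPM, above the means of the other Group B regions at 48.3 to 142 RPM.

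In the occipital cortex, here the primary visual cortex, 34 of the 54 were lower and 1 higher than in the other Group B regions without CB, against 49.4% lower and 10.2% higher among all (59.7% called). The median log2 fold change was -0.43, against -0.28 over all. Most of these calls did not hold under other scalings, with 11 lower and 1 higher in all 5, a count not given here for all miRNAs. Median-of-ratios scaling gave 6 higher and 17 lower (82 and 92 over all 362), edgeR 6 and 14 (91 and 85). The largest was miR-1251-5p, with 0.00, 2.05, 0.52, 1.53 and 1.19 RPM in the OC libraries of B1 to B5, against 8.19 to 11.8 RPM in the other regions (-2.32 ± 0.19, adjusted p = 7.5e-05). Its level in HC was 5.17 ± 1.54 RPM and in EC 14.6 ± 3.41 RPM and its tau, 0.390, was the highest of the 54 in Group B. Also lower in OC were miR-1179 (1.58 ± 0.696 RPM against 6.43 ± 1.48 RPM), miR-582-5p (26.5 ± 6.35 RPM against 56.8 ± 8.92 RPM), miR-671-5p (4.13 ± 1.64 RPM against 9.39 ± 0.802 RPM) and miR-935 (68.8 ± 5.99 RPM against 134 ± 19.9 RPM). The one higher was miR-708-3p, at 93.3 ± 6.89 RPM in OC and 77.2 ± 8.74 RPM in the rest (0.29 ± 0.10, adjusted p = 0.039), a call lost without B1, B2, B3 or B4, at 0.19 to 0.33.

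The hippocampus had the fewest calls of the 4 regions tested. In it 6 of the 54 passed against the other Group B regions without CB, with 2 higher and 4 lower, against 11.3% and 11.9% of all miRNAs (23.2% called). Higher were miR-874-5p, at 60.6 ± 10.5 RPM in HC and 43.1 ± 5.21 RPM in the rest (log2 fold change 0.50 ± 0.12, adjusted p = 0.022), and miR-577, at 327 ± 71.3 RPM in HC and 273 ± 48.4 RPM in the rest (0.33 ± 0.09, adjusted p = 0.026). Lower were miR-1296-5p (172 ± 50.7 RPM in HC and 263 ± 15.6 RPM in the rest, adjusted p = 0.013), miR-873-3p (85.6 ± 13.2 and 135 ± 23.9 RPM, adjusted p = 0.0029), miR-1251-5p and miR-873-5p. With CB among the other regions the balance turned to 9 higher and 1 lower. The count moved to 2 without B1, 3 without B3, 3 without B4 and 12 without B2. Neither higher call held without B1, without B3 or without B4, and that of miR-874-5p was also lost without B6 and that of miR-577 without B5. Of the lower calls, miR-873-5p was lost without any of B1, B3, B4, B5 or B6 and miR-1296-5p without B1.

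Some members were flat across regions. In Group A the lowest tau were those of miR-769-5p (0.025, region means of 3521 to 4735 RPM), miR-3200-3p (0.029), miR-628-5p (0.031), miR-708-5p (0.034) and miR-940 (0.042). In Group B, among members with a brain mean of at least 10 RPM, they were those of miR-1307-5p (0.026, region means of 610.5 to 960.5 RPM), miR-744-3p (0.035), miR-590-3p (0.036), miR-1224-5p (0.040) and miR-885-5p (0.047). Flatness in one set of regions did not carry over: miR-769-5p and miR-708-5p, flat in Group A, were both lower in CB.

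Of the 10 most abundant members, miR-577 and miR-584-5p followed the oligodendrocyte markers over brain libraries. Oligodendrocytes make the myelin of the brain, and the human host genes UGT8 and SH3TC2 both have known roles in myelinating cells. Spearman's rho between miR-577 and the sum of the 4 oligodendrocyte markers was 0.86 over the 27 brain libraries of Group A, where 3 of the 358 miRNAs outside the marker list had a higher rho, and 0.82 over the 39 of Group B, where 7 did. For miR-584-5p it was 0.81 in Group A (5 higher) and 0.89 in Group B (1 higher). Over the 54 the median rho was -0.16 (Group A) and 0.08 (Group B). The libraries share animals and regions, and RPM values of one library share its total, so these values are a description. The pair was picked after the values were seen.

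**Figure D4:**
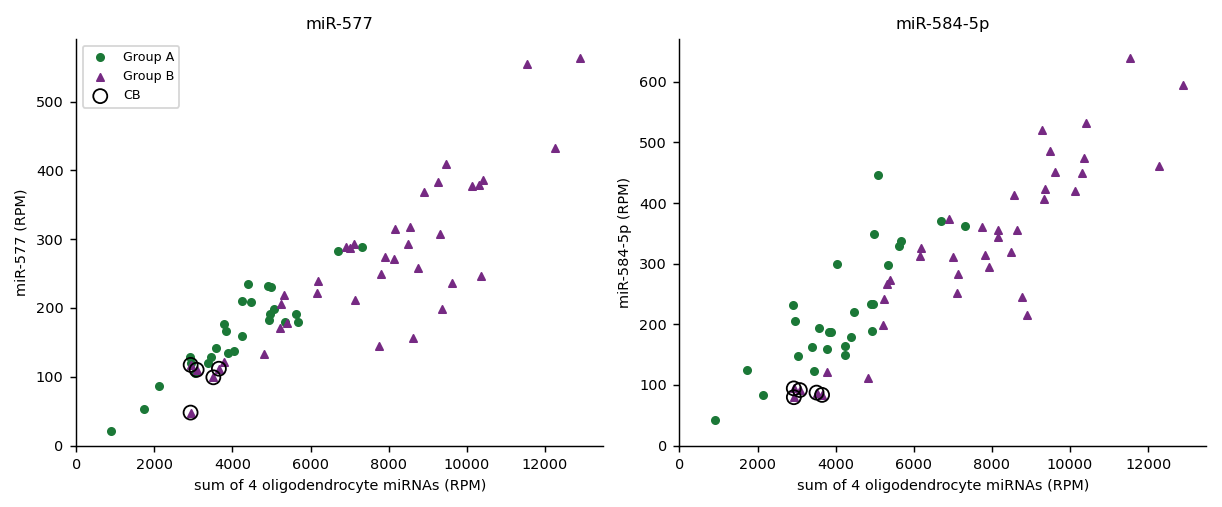
RPM of miR-577 (left) and miR-584-5p (right) in each brain library against the summed RPM of 4 oligodendrocyte markers, circles for Group A, triangles for Group B and rings for CB. Both rise along the marker sum in both groups, and the 5 CB libraries lie at the low end, at 47.9 to 117 RPM for miR-577 and 79.7 to 94.3 RPM for miR-584-5p.

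By region, miR-577 was highest in MC at 402 ± 151 RPM and lowest in CB at 97.2 ± 28.3 RPM within Group B, and highest in PCC at 217 ± 45.5 RPM and lowest in dACC at 109 ± 58.8 RPM within Group A. The SDs of MC, HC and PPC overlapped, so their order is not resolved. For miR-584-5p the Group B region means ran from 87.3 ± 5.87 RPM in CB to 455 ± 171 RPM in MC, and the Group A means from 171 ± 109 RPM in dACC to 343 ± 94.1 RPM in PCC. Both were nearly absent from PBMC, with at most 1.41 RPM of miR-577 and 5.30 RPM of miR-584-5p in any PBMC library.

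Animals differed within a region by about as much for late-numbered miRNAs as for all. The median SD over animals of log2(RPM + 1) within a region was 0.33 in Group A, against 0.34 over all, and 0.33 in Group B, against 0.30 over all. Counting error alone would give medians of 0.107 and 0.148 at these read numbers, and with it taken out the medians were 0.31 and 0.29. The share of the within-region variance that followed the animal across its regions had a median of 36.9% in Group A (35.8% over all) and 39.4% in Group B (39.0% over all). The largest spreads in Group B were those of miR-4454 (0.71), miR-873-3p (0.59), miR-3607-3p (0.58), miR-873-5p (0.57) and miR-1260b (0.54). For miR-1260b and miR-1260a the animal accounted for 88.1% and 85.3% of that variance: the brain means of miR-1260b were 26.6, 32.6 and 32.5 RPM in B1 to B3 and 50.6, 48.2 and 65.5 RPM in B4 to B6. In Group A the largest were miR-1271-5p (2.27), miR-3607-3p (0.85), miR-577 (0.75), miR-584-5p (0.69) and miR-1301-3p (0.67). The A4 mOFC library had 20.83 RPM of miR-577 and 42.75 RPM of miR-584-5p. The mOFC libraries of A1 to A3 had 176 to 289 and 159 to 362 RPM. The oligodendrocyte marker sum of A4 mOFC was 900 RPM, against 3786.5 to 7317 RPM in those libraries. How far the spreads of miR-577 and miR-584-5p rest on the A4 mOFC library was not tested.

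The spread of miR-1271-5p rested on a difference between animals. In animal A4 it had 124 RPM in PBMC, and its 6 brain libraries had 124 to 180 RPM. In animals A1 to A3 it had 0.82, 3.79 and 3.58 RPM in PBMC, and 2.58 to 83.6 RPM with a median of 5.96 RPM in brain. No brain library of A1 to A3 reached the lowest of A4, and the 2 above 10 RPM were the AMG libraries of A2 (83.6 RPM) and A3 (34.3 RPM), while the AMG library of A1 had 5.08 RPM and no AMG library of A4 was analysed. The A3 library labelled mOFC had 5.84 RPM, so if the 2 labels of A3 were swapped, A2 alone would have an AMG value above 10 RPM. In Group B it had 110 to 343 RPM in PBMC (median 212 RPM) and 101 to 478 RPM in brain (median 249 RPM). Of all 362 miRNAs, 3 had every A4 brain library above every other brain library of Group A, and of the 54 this was the only one.

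**Figure D5:**
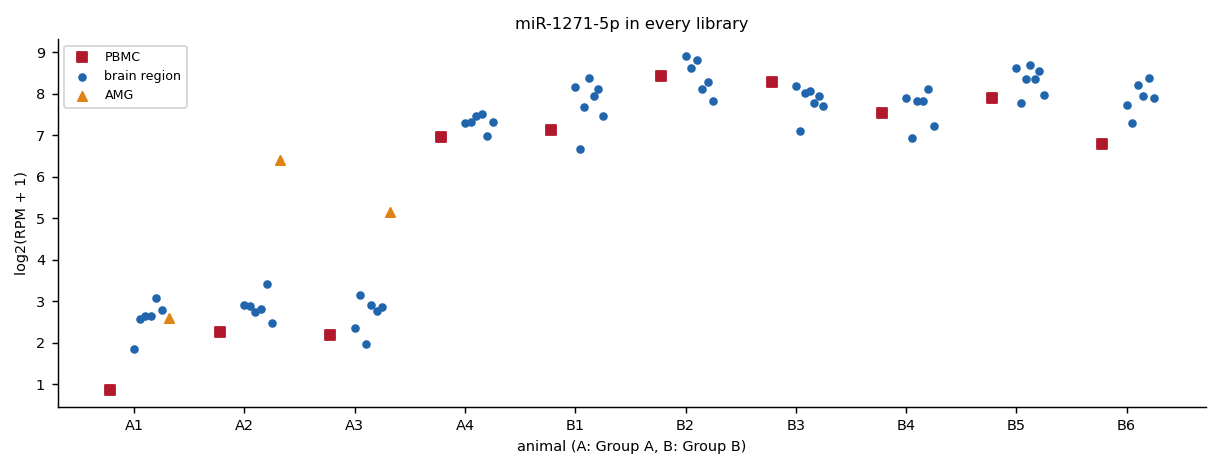
Level of miR-1271-5p as log2(RPM + 1) in every library of the 10 animals, with squares for PBMC, circles for brain regions and triangles for AMG. Animal A4 lies with the 6 Group B animals in PBMC and brain, while A1, A2 and A3 lie far lower apart from the libraries labelled AMG of A2 (83.6 RPM) and A3 (34.3 RPM, a label in doubt).

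The same animal had a higher brain mean of miR-1301-3p, from an intron of the DNA methyltransferase gene DNMT3A in human, at 143 RPM, against 72.3, 84.1 and 54.1 RPM in A1, A2 and A3. In Group B it was 169 to 306 RPM. Its PBMC levels averaged 8.67 ± 3.46 RPM in Group A and 39.4 ± 8.18 RPM in Group B.

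Whether the PBMC level of an animal tracks its brain level was asked in Group B, since 4 animals are too few in Group A. Of the 49 late-numbered miRNAs with a read in PBMC, 6 had a one-sided exact permutation p under 0.05 over the 720 pairings, against a background of 12.6% among 340 miRNAs, and 0 passed after adjustment over all 340 (smallest adjusted p = 0.197). The median Pearson r was 0.27, against 0.18 over all, and 33 of 49 were above 0. The highest was miR-1296-5p, with PBMC levels of 9.12 to 15.3 RPM and brain levels of 241 to 332 RPM (r = 0.96, exact permutation p = 0.00694, adjusted p = 0.197, Spearman's rho = 0.94 with exact permutation p = 0.00833, and r = 0.87 without B2 and B4, the farthest in PBMC). It was followed by miR-664a-3p (r = 0.95), miR-652-3p (0.83), miR-582-5p (0.75) and miR-592 (0.73), the last on 2 PBMC reads. The brain means cover unlike regions, since B2 lacks CB, B4 lacks MC and B6 lacks OC. For miR-1296-5p, B2 had the lowest and B4 the highest brain mean. Over the regions present in every animal, r was 0.90, 0.92, 0.80, 0.74 and 0.54 for these miRNAs in the same order. There 4 of the 49 had p under 0.05, against 12.9% of all. These are 6 animals of mixed sex and age, and no relation passed the adjustment.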

How the data were processed

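Small RNA libraries (Illumina TruSeq small RNA kit, GAIIx) of 76 samples were used. Per the study's methods, the authors matched reads with Bowtie within mirDeep2 to human miRNAs of miRBase, with no mismatch, and the deposited RPM values are reads scaled to the library's matched total. The authors' filter asks for 10 or more reads in 80% of the brain libraries, and 362 of 362 miRNAs met it here. The total read count of each miRNA, as deposited by the authors, was summed over the libraries and belongs to no single library. Library totals were instead inferred from the steps between low RPM values, and ran from 707977 to 7036382. Whole reads were recovered from the RPM steps for 100% of low values (tolerance 0.1). 3 value columns that are empty were not used. Per the paper, CB of animal B2, MC of B4 and OC of B6 were excluded because too few of their reads matched miRBase.

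Animals are the replicates. For each animal, RPM values were set as log2(RPM + 1), PBMC against the mean of its brain regions or a region against the mean of its other regions, with limma 3.58.1 (R 4.3.3), animal as block, with Benjamini-Hochberg adjustment over all 362 miRNAs and a threshold of 0.05. The block comes from the animal named in the labels, and deviations of PBMC and brain from their group means correlated at 0.285 to 0.571 in Group A animals and at -0.121 to 0.260 in Group B animals. Count tests on the recovered reads, edgeR 4.0.16 and DESeq2 1.42.0, called 318 and 317 of 362 miRNAs between PBMC and brain in Group A, 324 and 328 in Group B, 236 and 241 in PVN, 288 and 292 in CB, 176 and 173 in OC and 78 and 94 in HC. Arms were compared as log2 ratios in the same model, and blood-brain correlations by exact permutation (scipy 1.17.1). Other pseudocounts, filters, scalings and animal sets were tried, and the model was tested on simulated data.

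Members named are the 10 most abundant, up to 5 higher and 5 lower by fold change in each comparison with the same direction in every animal, the members of the lists, the 5 highest and lowest in specificity, the 5 largest spreads and the 5 highest correlations. Any other member named was chosen after its values were seen. The miRNAs and lists were chosen with earlier results of these data known. No sequences are shown.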

Additional observations from a re-analysis of the deposited data

Results flagged for a closer look

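In 12 of 159 sets of 4 or 6 animals (7.55%) the highest or lowest animal lay far from the others, where chance gives about 1 in 20. In Group A brain means these were miR-574-3p in A2 (27.4 RPM, others 24.7 to 24.9), miR-598-3p in A3 (716 RPM, others 450 to 459), and in A4 miR-744-3p (30.9 RPM, others 39.8 to 40.5), miR-935 (153 RPM, others 213 to 218) and miR-1271-5p (159 RPM, others 5.22 to 17.5). The brain mean of A4 lacks AMG, so it does not cover the same regions as the others. In AMG miR-935 had 295, 377 and 191 RPM in A1, A2 and A3, so its gap partly reflects the missing region. In Group A PBMC they were miR-1271-5p in A4 (124 RPM, others 0.82 to 3.79) and miR-3607-3p in A2 (31.6 RPM, others 6.53 to 9.36). In Group B brain means they were miR-582-3p in B3 (59.4 RPM, others 48.9 to 52.6) and miR-708-3p in B1 (63.1 RPM, others 70.7 to 73.9). In Group B PBMC they were miR-574-3p in B2 (34.2 RPM, others 52.6 to 57.7), miR-1277-5p in B6 (106 RPM, others 53.7 to 67.9) and miR-3607-3p in B6 (12.4 RPM, others 32.5 to 39.2).

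The PBMC minus brain difference of 13 miRNAs differed between Groups A and B by limma, as the difference of log2 values A minus B: miR-874-5p -1.60, miR-760 -1.58, miR-708-3p -1.47, miR-935 -1.43, miR-769-5p -1.34, miR-1251-5p -1.30, miR-1179 -1.24, miR-592 -1.23, miR-628-5p -1.20, miR-708-5p -1.18, miR-1180-3p -1.01, miR-1307-3p -0.74 and miR-887-3p -0.66, with adjusted p between 0.0012 and 0.049. Of these, miR-592, miR-708-3p, miR-708-5p, miR-887-3p, miR-935, miR-1179 and miR-1251-5p had only 0 to 5 PBMC reads in each group. Region, sex, age, euthanasia and freezing differ with the group, and these cannot be told apart.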

How the results depend on the processing

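Of the counts and medians under other settings, 146 stayed close to the values reported and 29 moved; of the named fold changes, 681 kept direction and call, 32 kept direction without passing and 1 reversed. The reversed one was miR-873-5p in HC, at -0.31 in the report and 0.042 with CB among the other regions. Calls in OC (35 of 54) fell to 23 by median of ratios, 17 by quantile normalization, 20 in edgeR and 18 in DESeq2. Calls in HC (6) became 10 by quantile normalization, 10 with CB included (9 higher and 1 lower, against 2 and 4), 11 in DESeq2 and 3 without pairing. Without the animal as block the other counts were 48 and 49 for PBMC in Groups A and B, 35 in PVN, 46 in CB, 28 in OC, and 4 and 5 for arms. The 13 differences of the PBMC effect became 4 at a pseudocount of 0.1 RPM, 26 at 10 RPM and 7 by median of ratios. Arms in Group B became 8 at 10 RPM (5 reported), and correlations 3 by Spearman's rho (6 reported). The median brain level became 48.9 RPM in Group A and 42.7 RPM in Group B by median of ratios, and 60.9 RPM in Group B over members of at least 10 RPM. Median tau in Group A became 0.0708 by median of ratios, 0.0861 at 10 RPM and 0.367 on linear RPM, and in Group B 0.0795 and 0.338 for the last pair of settings. The median spread in Group B became 0.25 at 10 RPM. Leaving out 1 animal at a time gave 48 to 49 and 48 to 50 calls for PBMC in Groups A and B, 33 to 39 in PVN, 47 to 48 in CB, 29 to 39 in OC, 2 to 12 in HC, 6 to 14 for the PBMC effect, and 4 to 6 and 5 to 7 for arms. The causes were not tested. Low PBMC read numbers limit the fold changes of miRNAs near 0 there, and 4 to 6 animals limit every test.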
